A study of Mus musculus with 12 samples.

Results

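Proteins bound for the blood, the bile or a membrane enter the endoplasmic reticulum (ER) while they are being made, and most of them receive N-linked sugar chains there. The 48 genes described here encode that entry route: the signal recognition particle and its receptor, the translocon, the signal peptidase, the enzymes that build the sugar chain on the lipid dolichol, the oligosaccharyltransferase that transfers it, and the enzymes that trim it afterwards. They are a fixed list of symbols grouped by function, drawn up with earlier results of these data known, and all 48 were found among the 55487 rows of the deposited table, each on 1 row. Of these genes, 48 of 48 passed the filter on low values and were tested. They were sorted into 6 stages: 7 genes of the particle and its receptor, 10 of the translocon, 5 of the signal peptidase, 9 of glycan transfer, 13 of glycan assembly and 4 of glucose trimming.

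The values come from RNA-seq of liver from wild-type Balb/c mice aged 6 weeks, in 6 control libraries (control 3 to 8) and 6 libraries from severe acute pancreatitis (SAP 10 to 15). The labels name caerulein, a peptide that drives the pancreas to oversecrete, for the SAP group. Dose and time after treatment are not given here. The design text mentions a pair of models, but the labels hold a single strain and treatment. The labels do not tie libraries to separate animals, and the p-values therefore reflect only how far these samples scatter, which may be technical. RNA was taken from whole liver, so a change in cell number and a change in RNA per cell cannot be told apart.

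The liver makes most plasma proteins, and hepatocytes hold large amounts of rough ER. A ribosome that starts a secretory protein exposes a signal peptide, which the signal recognition particle binds. The particle brings the ribosome to its receptor and then to the Sec61 channel. Signal peptidase removes the signal peptide during passage. Oligosaccharyltransferase moves a preassembled glycan from dolichol to asparagine, and glucosidases then trim the glycan so that the lectin chaperones calnexin and calreticulin can hold the folding protein. Genes of this route are known targets of the unfolded protein response through the factors Xbp1 and Atf6.

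Promoters are shown for 5 of the genes because they hold letters of motifs tied to that response. Promoter sequences from RefSeq (GRCm38.p6), 250 bases before to 50 after the start site, were matched for 38 of the 48 genes. No entry was matched for Srp19, Srp68, Sec61a1, Ssr2, Tram1, Spcs3, Sec11c, Ostc, Dpagt1 and Alg2. Each line gives 100 bases upstream of the start site on the gene's strand, 5′ to 3′ (for Alg12 those from -250 to -151, for the others those nearest the start site, ending at -3 for Sec63), with the matched motif letters in capitals. Alg12 (chr15:88819469-88819568, minus strand) is shown for the ER stress response element, CCAAT and CCACG with any 9 bases between them. Dpm2 (chr2:32570758-32570857, plus strand) and Mogs (chr6:83115406-83115505, plus strand) are shown for TGACGTG. Srprb (chr9:103202066-103202165, minus strand) and Sec63 (chr10:42761394-42761493, plus strand) are shown for 3 copies each of CCACG, the end of the ER stress response element.
Alg12: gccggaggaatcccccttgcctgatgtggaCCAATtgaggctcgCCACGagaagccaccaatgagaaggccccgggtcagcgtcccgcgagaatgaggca
Dpm2: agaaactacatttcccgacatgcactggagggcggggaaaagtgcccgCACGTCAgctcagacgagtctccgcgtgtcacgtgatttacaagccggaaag
Mogs: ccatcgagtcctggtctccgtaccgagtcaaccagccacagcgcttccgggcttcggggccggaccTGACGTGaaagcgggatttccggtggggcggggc
Srprb: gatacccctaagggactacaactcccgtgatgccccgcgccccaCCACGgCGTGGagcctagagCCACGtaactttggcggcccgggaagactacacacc
Sec63: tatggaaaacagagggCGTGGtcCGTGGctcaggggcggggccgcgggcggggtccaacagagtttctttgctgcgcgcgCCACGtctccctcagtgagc

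Both strands were searched over all 32851 RefSeq promoters and again over the 11123 promoters of genes tested here. The full ER stress response element was in 1 of the 38 members, Alg12, and in 0.144% of promoters of tested genes. A second form, ATTGG and CCACG with any 1 base between them, was in 0 of the 38 members and in 0.0899% of promoters of tested genes. TGACGTG was in 2 of the 38 members, Dpm2 and Mogs, and in 2.96% of promoters of tested genes. CCACG, which is also the end of the first 2 motifs, was in 20 of the 38 members (52.6%), in 46.7% of promoters of tested genes and in 32.8% of all promoters. Of the 27 matched members that were higher in SAP, 15 held CCACG, and of the 11 that did not pass the test, 5 held it. Several copies were not limited to the printed genes. Upstream of the start site Alg6, which did not pass, held CCACG at -237, -207, -104 and -72. Spcs1, which was higher in SAP, held it at -186, -92 and -60. A match says only that the letters are in this window.

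Transcripts of the entry route were higher in SAP livers in 36 of the 48 members and lower in 0, and 12 did not pass the test (limma on log2(TPM + 1), Benjamini-Hochberg adjusted p under 0.05 over 11344 genes; TPM is a transcript level per length on a fixed total per library). Over all tested genes 19.5% were higher and 25.0% were lower. In 30 members every SAP library lay above every control library, as for 10.5% of all tested genes. A log2 difference of at least 1 was called in 6 members (Ssr3, Sec61g, Ssr4, Rpn1, Uggt1 and Srprb), against 2.55% of all tested genes. The median log2 difference was 0.74, against -0.03 over all tested genes, with a range from -0.07 for Dpm1 to 1.18 for Ssr3. Summed, the members made up 0.299 ± 0.0155% of TPM in control libraries and 0.498 ± 0.0383% in SAP libraries (SD, n = 6 per group).

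The stages differed in how many members passed. All 5 signal peptidase genes and all 9 glycan transfer genes were higher, with medians of 0.83 and 0.85. In the translocon 9 of 10 were higher (median 0.81), and in the particle and its receptor 5 of 7 (median 0.47). Glycan assembly had 6 of 13 higher (median 0.14) and glucose trimming 2 of 4 (median 0.49). These counts and medians describe the stages, and the difference between stages was not tested.

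**Figure D1:**
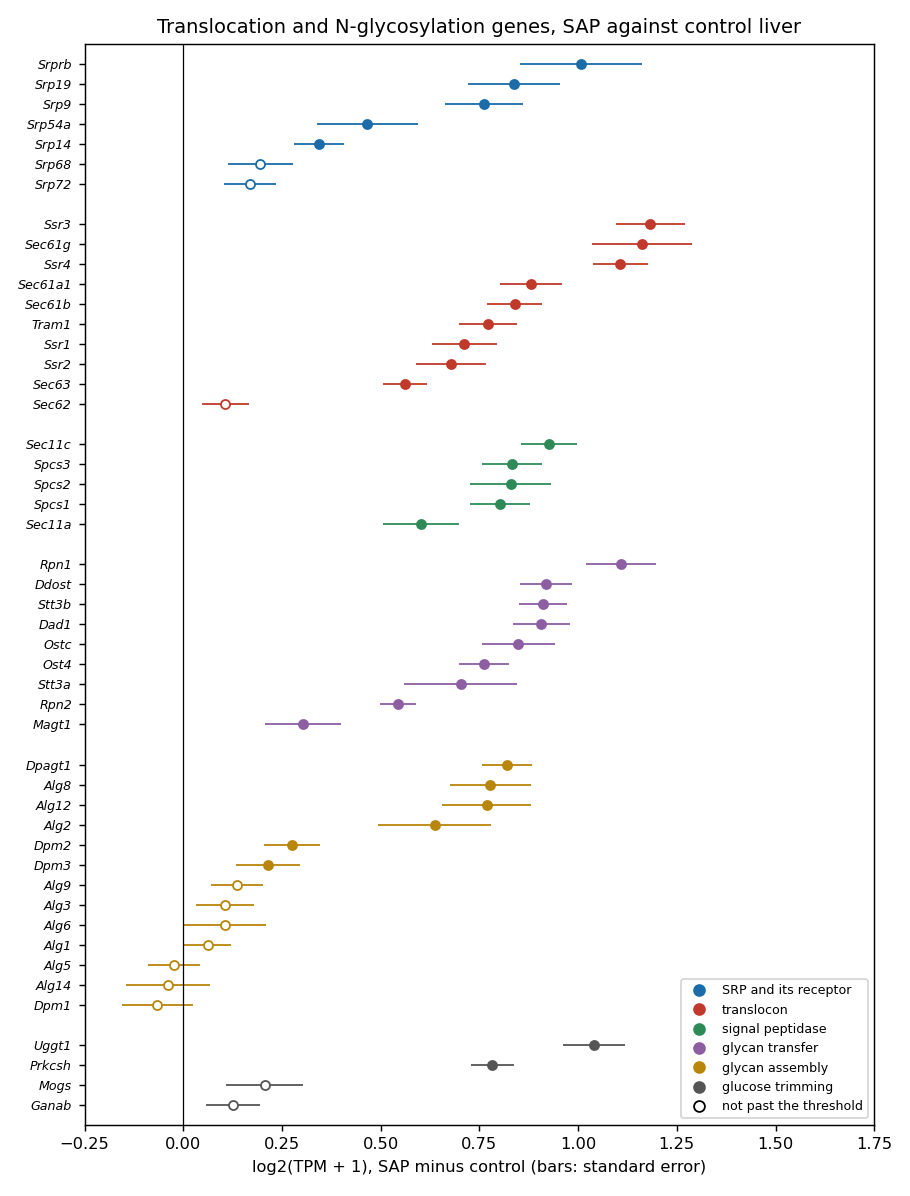
Difference in log2(TPM + 1) between SAP and control for each of the 48 genes (x axis), grouped by stage, with bars for the standard error and open circles for genes not past the threshold. Signal peptidase and glycan transfer genes are all filled, whereas 7 of the 13 glycan assembly genes are open and lie near 0.

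The choice of scaling bears on the members that did not pass. In SAP libraries 27 acute-phase genes held 26.0 ± 5.10% of TPM, against 2.86 ± 0.147% in control libraries (SD, n = 6 per group), and TPM is relative to a total that includes them. With each library scaled to the same total outside that list, the median of all tested genes moved from -0.03 to 0.31, 53.3% of tested genes were higher, and 48 of 48 members were higher with a median of 1.12. Relative to the median of all genes the members' median was then 0.81, against 0.76 with the deposited values. Statements below that a member did not pass hold for the deposited values, and each such member passed as higher on the other total. On that total 1267 tested genes were lower, against 2832 with the deposited values. Genes outside the 48 were read on the deposited values alone, so falls given for them below hold for those values and were not checked on the other total.

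Xist, the RNA that coats the silenced X chromosome, split the libraries unevenly over the groups. It was low (4.59 to 17.1 TPM) in 1 control library, control 5, and in 4 SAP libraries, all but SAP 10 and SAP 12, and it reached at least 49.1 TPM in the remaining 7. A fit with this split as a term called 35 members higher: Srp54a and Dpm3 no longer passed, and Ganab did. The split term itself passed for Srp9 alone among the members, at 0.32 for low minus high Xist (limma adjusted p = 0.0430). Srp9 stayed higher in SAP in all 25 fits, with a lowest log2 difference of 0.60. Among the 7 libraries with high Xist alone, 33 members passed as higher and 0 as lower. SAP 14 had the highest acute-phase share (34.8%) and the highest value of the SAP libraries for 31 of the 48 members. SAP 12 had the lowest share (20.5%) and the lowest value for 22. The other SAP libraries did not follow that order: SAP 15, with the next lowest share (21.7%), had the lowest value for 1. SAP 13, at 25.5%, had it for 14. Without SAP 14 and control 5 the count of members higher in SAP was again 36. Albumin transcript Alb, the defining hepatocyte marker, was between 57713 and 69833 TPM in controls and between 21995 and 32403 TPM in SAP. On the deposited values it was lower in SAP, with a log2 difference of -1.24 (limma adjusted p = 1.67e-06).

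**Figure D2:**
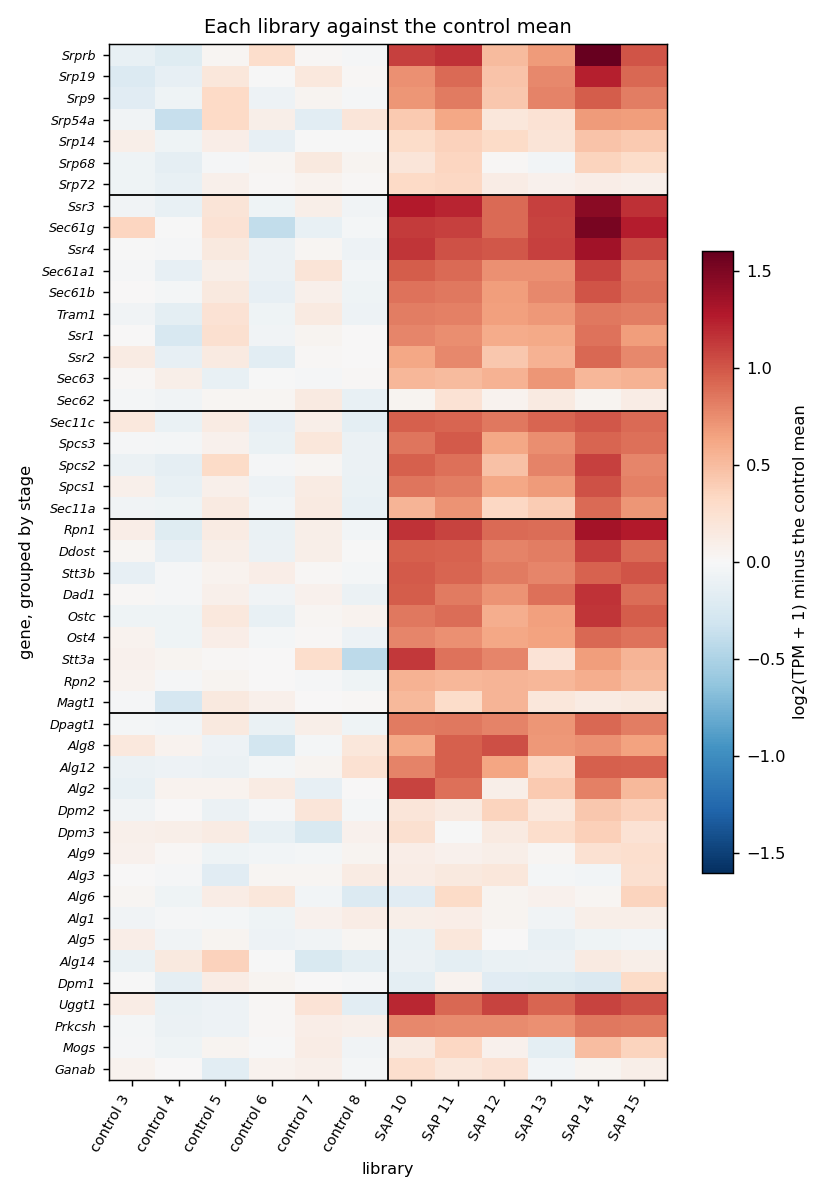
Each library's log2(TPM + 1) minus the control mean (color), with the 48 genes as rows in stage order and the 12 libraries as columns. The SAP columns are red for most genes of the particle, translocon, signal peptidase and glycan transfer and pale for the lower rows of glycan assembly, and SAP 14 has the highest SAP value for 31 of the 48 genes.

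In the signal recognition particle the rise was uneven. Srprb, the membrane-anchored beta subunit of the particle's receptor, had 11.0, 12.7 and 15.7 TPM (lowest, median, highest) in controls and 18.5, 27.4 and 40.5 TPM in SAP. The groups did not overlap, and SAP 14 was the highest. Its log2 difference was 1.01 ± 0.15 (SE; limma adjusted p = 1.52e-04). Srp19, a protein that helps the particle assemble on its RNA, had 18.9, 22.4 and 25.3 TPM in controls and 31.1, 40.6 and 54.1 TPM in SAP. All SAP values lay above all control values (0.84 ± 0.12 SE; limma adjusted p = 6.81e-05). Srp9, which with Srp14 forms the part of the particle that pauses translation, had 54.5, 60.1 and 77.4 TPM in controls and 84.0, 109.7 and 122.9 TPM in SAP (0.76 ± 0.10 SE; limma adjusted p = 3.67e-05). Its groups did not overlap either.

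Srp14 rose by 0.34 on the log2 scale, from 68.2 ± 4.42 to 86.8 ± 5.62 TPM (SD, n = 6 each; limma adjusted p = 6.02e-04). The difference between Srp9 and Srp14 was not tested. Srp54a, the GTPase that binds signal peptides, rose by 0.47 (limma adjusted p = 0.00930). Its value is uncertain, because the mouse genome holds the near-identical copies Srp54b and Srp54c and how shared reads were assigned is not stated. Both copies also rose, by 0.54 and 0.63. Srp54a did not pass with the Xist split as a term or within the high Xist libraries (highest adjusted p = 0.104).

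The heterodimer of Srp68 and Srp72, which binds the particle's RNA, did not pass. Srp68 had 31.4, 34.9 and 38.8 TPM in controls and 33.8, 41.5 and 44.7 TPM in SAP. The groups overlapped, and the log2 difference was 0.19 ± 0.08 (SE; limma adjusted p = 0.0718). It passed in 4 of 25 fits, those without SAP 12 or SAP 13 among them. Srp72 had a log2 difference of 0.17 ± 0.07 (SE; limma adjusted p = 0.0528), close to the threshold, and passed in 8 of 25 fits, those without SAP 13, SAP 14 or SAP 15 among them.

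The alpha subunit of the receptor is listed as Srpr and was not among the 48 genes. It rose from 97.7 ± 6.88 to 162 ± 11.9 TPM (SD, n = 6 each; 0.72, limma adjusted p = 2.01e-06). Control libraries had a Srpr to Srprb log2 ratio of 2.85 ± 0.17 and SAP libraries one of 2.56 ± 0.29 (SD, n = 6 per group), a difference of -0.28 (exact permutation test, two-sided, p = 0.0714, adjusted p = 0.0893 over 5 pairs). That ratio passed without control 6, without SAP 12 and with a pseudocount of 0.1 (adjusted p = 0.0487, 0.0244 and 0.0460).

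**Figure D3:**
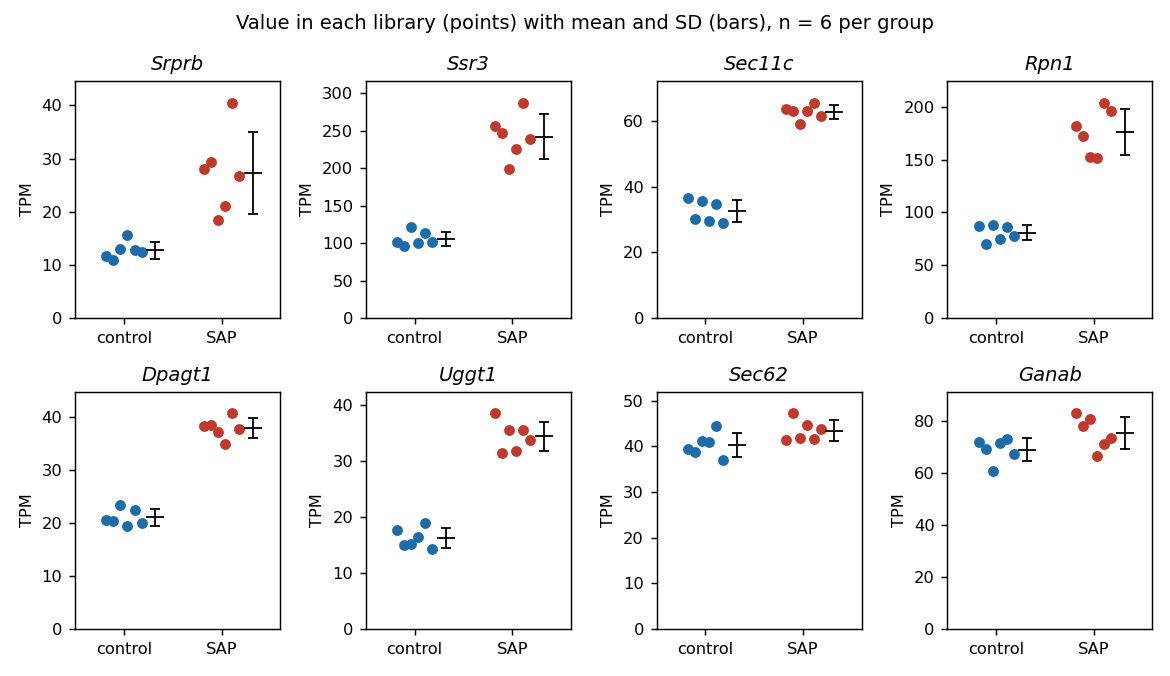
TPM in each library (points, y axis from 0) for 8 of the genes, control in blue and SAP in red, with the mean and SD of 6 libraries beside them. Srprb, Ssr3, Sec11c, Rpn1, Dpagt1 and Uggt1 have no overlap between groups, while Sec62 and Ganab do.

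The translocon held the 2 largest differences of the route, in Ssr3 and Sec61g. Ssr3, the gamma subunit of the translocon-associated protein complex, which helps chains start passage, had 96.6, 102 and 122 TPM in controls and 198, 243 and 287 TPM in SAP. The groups did not overlap (1.18 ± 0.09 SE; limma adjusted p = 3.68e-07). Ssr4, the delta subunit of that complex, had 164, 173 and 195 TPM in controls and 348, 368 and 444 TPM in SAP (1.11 ± 0.07 SE; limma adjusted p = 8.74e-08). Every SAP library was above every control library for Ssr4, too. The other subunits, Ssr1 and Ssr2, rose by 0.71 and 0.68.

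Sec61b, the beta subunit of the channel, had the highest level of all 48 genes, with 244, 266 and 298 TPM in controls and 427, 487 and 540 TPM in SAP. Its groups did not overlap (0.84 ± 0.07 SE; limma adjusted p = 8.16e-07). The pore-forming subunit Sec61a1 rose from 94.8 ± 8.58 to 176 ± 17.0 TPM (0.88; SD, n = 6 each) and the small gamma subunit Sec61g from 18.5 ± 3.46 to 42.4 ± 6.49 TPM (1.16; SD, n = 6 each). Tram1, a membrane protein beside the channel that contacts nascent chains, rose by 0.77.

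Sec62 and Sec63 work together on chains that enter after or slowly during translation, and Sec63 recruits the chaperone encoded by Hspa5 to the channel. Sec63 rose from 59.3 ± 2.87 to 88.0 ± 4.57 TPM (0.56; SD, n = 6 each). Sec62 had 37.0, 40.1 and 44.5 TPM in controls and 41.4, 42.8 and 47.3 TPM in SAP. The Sec62 groups overlapped, and it did not pass (0.11 ± 0.06 SE; limma adjusted p = 0.167). Sec62 passed as higher in 2 of 25 fits, with quantile normalization (0.28) and with the total set outside the acute-phase list (0.49). The log2 ratio of Sec62 to Sec63 fell from -0.55 ± 0.14 to -1.003 ± 0.10 (SD, n = 6 per group), a difference of -0.46 (two-sided exact permutation p = 0.00216, which is the smallest possible; adjusted p = 0.00541 over 5 pairs). A ratio within a library does not depend on how that library is scaled, apart from the pseudocount.

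All 5 signal peptidase genes rose, each with no overlap between groups. Sec11c, a catalytic subunit, had 29.0, 32.4 and 36.6 TPM in controls and 59.0, 62.9 and 65.5 TPM in SAP (0.93 ± 0.07 SE; limma adjusted p = 4.23e-07). Its SAP values were close to each other, with an SD of 2.18 TPM around 62.6 TPM. Spcs3, an accessory subunit needed for activity, had 22.8, 24.3 and 28.0 TPM in controls and 38.2, 45.8 and 49.5 TPM in SAP (0.83 ± 0.08 SE; limma adjusted p = 1.96e-06). Spcs1, the smallest accessory subunit, had 130, 141 and 154 TPM in controls and 216, 248 and 286 TPM in SAP (0.80 ± 0.08 SE; limma adjusted p = 2.88e-06). Spcs2 rose by 0.83.

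The alternative catalytic subunit, Sec11a, had 39.5, 41.6 and 47.9 TPM in controls and 54.4, 67.1 and 81.8 TPM in SAP. It rose by 0.60 ± 0.10 (SE; limma adjusted p = 2.25e-04), the largest p of the stage. The log2 ratio of Sec11a to Sec11c went from 0.40 ± 0.11 in controls to 0.07 ± 0.19 in SAP (SD, n = 6 each), a difference of -0.32 (exact permutation test, two-sided, p = 0.00866, adjusted p = 0.0144 over 5 pairs). Ratios of this pair overlapped between groups, from 0.18 to 0.48 in controls and from -0.13 to 0.32 in SAP.

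All 9 oligosaccharyltransferase genes rose. Stt3b, the catalytic subunit of the form that modifies sites missed during translation, had 21.5, 23.6 and 25.5 TPM in controls and 41.2, 46.2 and 48.4 TPM in SAP (0.91 ± 0.06 SE; limma adjusted p = 1.75e-07). Ddost, a subunit shared by both forms, had 85.2, 94.4 and 100.1 TPM in controls and 163, 179 and 199.9 TPM in SAP (0.92 ± 0.07 SE; limma adjusted p = 2.68e-07). Dad1, a small shared subunit, had 133, 142 and 150.5 TPM in controls and 234, 262 and 318 TPM in SAP (0.91 ± 0.07 SE; limma adjusted p = 5.99e-07). None of these 3 genes had overlapping groups.

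Rpn1 and Rpn2, the ribophorins, are large shared subunits. Rpn1 rose from 80.9 ± 7.39 to 176 ± 22.0 TPM (SD, n = 6 each), by 1.11 on the log2 scale, and Rpn2 from 105 ± 3.30 to 154 ± 2.76 TPM (SD, n = 6 each), by 0.54. Ostc, a subunit of the form docked at the channel, rose by 0.85, and the very small subunit gene Ost4 by 0.76. Stt3a, the catalytic subunit that works during translation, rose by 0.70 but with a wide spread: 72.0, 98.8 and 118 TPM in controls and 113, 160.1 and 214 TPM in SAP, with overlap (SE 0.14; limma adjusted p = 0.00134). Magt1, a thiol oxidoreductase of the Stt3b form, had 17.5, 21.4 and 23.8 TPM in controls and 23.2, 25.1 and 31.2 TPM in SAP. It rose by 0.30 ± 0.10 (SE; limma adjusted p = 0.0194), also with overlap.

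Stt3a to Stt3b had a log2 ratio of 1.99 ± 0.24 in control and 1.78 ± 0.27 in SAP libraries (SD, n = 6 per group), a difference of -0.21 that did not pass (exact permutation test, two-sided, p = 0.182, adjusted p = 0.182 over 5 pairs). Stt3a was thus the more abundant transcript in both groups on the TPM scale. Of 3 further subunit genes outside the 48, all 3 rose: Krtcap2 by 0.92, Tmem258 by 0.89, and Tusc3, the alternative to Magt1, by 0.29.

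**Figure D4:**
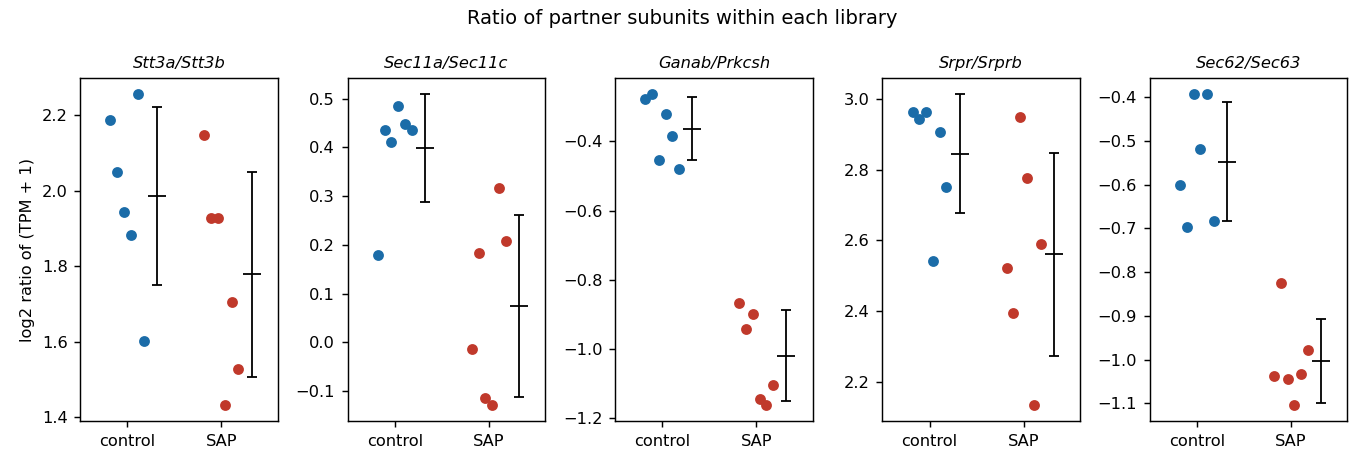
Log2 ratio of TPM + 1 between partner subunits (y axis) in each library for 5 pairs, control in blue and SAP in red, with mean and SD of 6 libraries. Ganab/Prkcsh and Sec62/Sec63 are lower in every SAP library than in any control library, and the other 3 pairs overlap.

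Glycan assembly was split. Dpagt1, which starts the chain by adding N-acetylglucosamine phosphate to dolichol phosphate, had 19.5, 20.5 and 23.5 TPM in controls and 35.0, 38.1 and 40.8 TPM in SAP. The groups did not overlap (0.82 ± 0.06 SE; limma adjusted p = 4.48e-07). Alg8, a glucosyltransferase near the end of assembly, had 4.98, 6.38 and 7.32 TPM in controls and 10.2, 11.0 and 13.9 TPM in SAP (0.78 ± 0.10 SE; limma adjusted p = 4.15e-05). Alg12, a lumenal mannosyltransferase whose promoter is printed above, had 5.21, 5.37 and 6.84 TPM in controls and 7.33, 11.1 and 11.9 TPM in SAP (0.77 ± 0.11 SE; limma adjusted p = 1.07e-04).

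Alg2, a cytosolic-face mannosyltransferase, rose by 0.64 from 6.04 ± 0.502 to 10.2 ± 2.69 TPM (SD, n = 6 each; limma adjusted p = 0.00265), but its groups overlapped and it did not pass within the high Xist libraries (adjusted p = 0.0764). The accessory subunits of dolichol-phosphate mannose synthase, Dpm2 and Dpm3, rose by 0.28 and 0.21. Dpm3 was just inside the threshold (limma adjusted p = 0.0469) and passed in 11 of 25 fits. It did not pass without control 3, control 6, control 7, control 8, SAP 10, SAP 13, SAP 14 or SAP 15, each left out alone. Dpm2 did not pass within the high Xist libraries (adjusted p = 0.0599).

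The other 7 assembly genes did not pass. Dpm1, the catalytic subunit of that synthase, had 79.1, 87.9 and 95.0 TPM in controls and 74.6, 77.7 and 108.7 TPM in SAP, a log2 difference of -0.07 ± 0.09 (SE; limma adjusted p = 0.585). It passed as higher with quantile normalization (0.21) and with the total set outside the acute-phase list (0.33). Alg14, which anchors the enzyme of the next step after Dpagt1, had 5.30, 6.17 and 8.64 TPM in controls and 5.71, 5.97 and 7.24 TPM in SAP (-0.04 ± 0.11 SE; limma adjusted p = 0.800). Alg5, which makes the glucose donor, had a difference of -0.02 ± 0.06 (SE). The mannosyltransferases Alg1, Alg3 and Alg9 had differences of 0.06, 0.11 and 0.14, and the glucosyltransferase Alg6 of 0.11. Each of these 7 passed as higher with the total set outside the acute-phase list. Alg3 also passed with quantile normalization (0.20; limma adjusted p = 0.00821).

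Glucose trimming split between partners as well. Uggt1, the sensor that adds glucose back to misfolded glycoproteins, had 14.3, 15.8 and 19.0 TPM in controls and 31.5, 34.6 and 38.5 TPM in SAP. The groups did not overlap (1.04 ± 0.08 SE; limma adjusted p = 4.23e-07). Prkcsh, the beta subunit of glucosidase II, had 83.3, 88.5 and 95.6 TPM in controls and 148, 152 and 160.3 TPM in SAP, again without overlap (0.78 ± 0.05 SE; limma adjusted p = 2.00e-07). Its catalytic partner, the alpha subunit Ganab, had 61.0, 70.5 and 73.0 TPM in controls and 66.6, 75.8 and 83.0 TPM in SAP, with overlap, and did not pass (0.13 ± 0.07 SE; limma adjusted p = 0.152). Mogs, glucosidase I, whose promoter is printed above, had 24.6, 25.6 and 28.2 TPM in controls and 23.1, 30.7 and 36.7 TPM in SAP (0.21 ± 0.10 SE; limma adjusted p = 0.103).

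Ganab to Prkcsh had a log2 ratio of -0.36 ± 0.09 in control and -1.02 ± 0.13 in SAP libraries (SD, n = 6 per group). The difference of -0.66 was the largest of the 5 pairs (two-sided exact permutation p = 0.00216, which is the smallest possible; adjusted p = 0.00541), and every SAP ratio lay below every control ratio. Ganab itself passed as higher in 5 of 25 fits: with the Xist split as a term (0.22; limma adjusted p = 0.0120), within the high Xist libraries (0.21), and with quantile (0.37), TMM-like (0.18) and outside-acute-phase (0.52) scaling. Mogs passed in 3 of 25, with quantile and outside-acute-phase scaling and without SAP 13 (0.28; limma adjusted p = 0.0145).

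Neighbouring steps were described with lists that hold none of the 48 genes. Of 7 lectin chaperone and mannose trimming genes, 7 rose: Pdia3, an oxidoreductase that works with the lectins, by 1.32, calreticulin (Calr) by 0.79, and Edem2, which starts mannose trimming for degradation, by 1.54. Among 25 other targeting and insertion genes 10 rose, 3 fell and 12 did not pass (median 0.23). Hspa13, an Hsp70 relative at the ER, rose by 1.33, while Emc9, a subunit of the ER membrane protein complex that inserts membrane proteins by another route, fell by 1.29. The other 2 that fell, Emc6 (-0.29) and Emc10 (-0.45), belong to that complex too. Of its 10 genes in the list 3 fell, 1, Mmgt1, rose (0.41), and 6 did not pass, where 25.0% of all tested genes fell and 19.5% rose. These calls hold for the deposited values and were not repeated on the total outside the acute-phase list. These names were chosen after their values were seen.

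Genes that make dolichol and the sugar donors were mixed, with 9 of 19 higher, 3 lower and 7 not past the threshold (median 0.18). Over all tested genes 19.5% were higher and 25.0% were lower. Pgm3, an enzyme of the route to UDP-N-acetylglucosamine, rose from 8.75 ± 0.506 to 29.1 ± 3.69 TPM (1.62; SD, n = 6 each), more than any of the 48 genes on the log2 scale. Gmppa, a regulator of GDP-mannose synthesis, rose by 0.85, and Nus1, a subunit of the enzyme that makes the dolichol chain, by 0.55. In the Golgi 2 of 11 tested genes of N-glycan processing rose, 2 fell and 7 did not pass, which is near the shares over all tested genes. B4galt1, a galactosyltransferase, rose by 1.37 and Mgat2 by 0.37, and Man2a2, a mannosidase, fell by 0.71. Man1c1 and Mgat4a of that list did not pass the filter. Among 6 unfolded protein response genes Hsp90b1 (1.51), Hspa5 (1.49) and Xbp1 (0.84) rose with 2 others, and 1, the sensor gene Ern1, fell by 0.53.

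**Figure D5:**
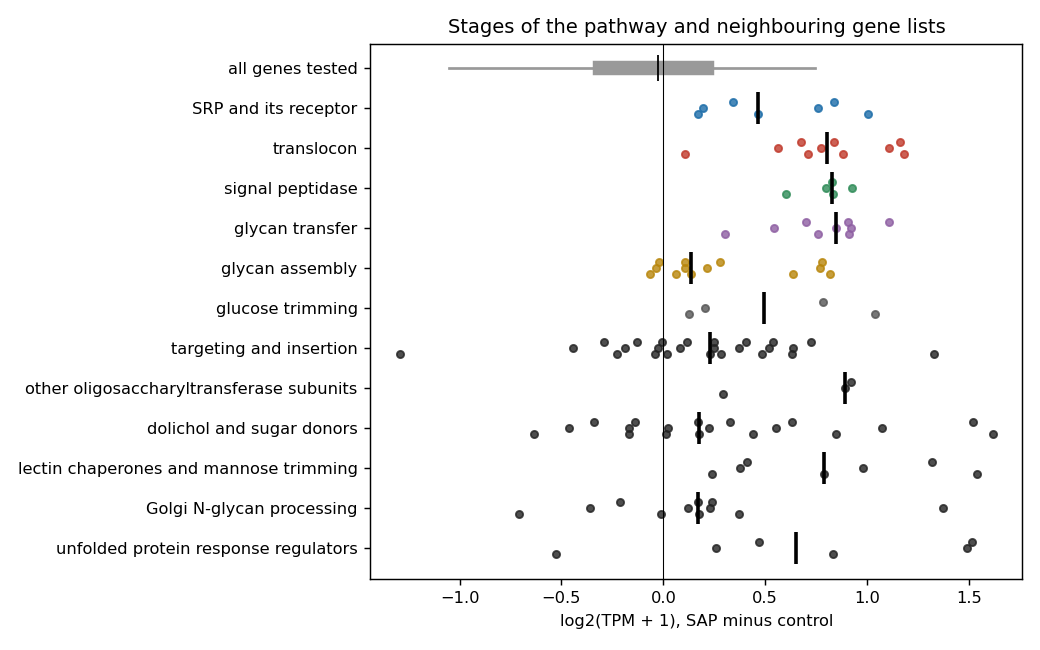
Log2 difference between SAP and control (x axis) for each gene (points) in the 6 stages and in 6 neighbouring lists, with each median as a black tick; for all tested genes the grey box runs from the 25th to the 75th percentile (-0.31 to 0.21) and the line from the 5th to the 95th (-1.05 to 0.74). Medians of the translocon, signal peptidase and glycan transfer lie past the right end of that line. So do those of the neighbouring lists of other oligosaccharyltransferase subunits (0.89) and of lectin chaperones and mannose trimming (0.79). The median of glycan assembly lies within the box.

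Markers of other cell types were read in the same libraries. The 14 pancreatic acinar markers summed to 0.89 to 18.8 TPM in controls (at most 2.26 TPM without control 8) and 0.69 to 1.88 TPM in SAP, with Prss1 listed at 0 in every library, and 0 of the 14 were tested. The 7 plasma and B cell markers summed to 12.5 to 33.3 TPM in controls and 10.4 to 15.2 TPM in SAP; of 3 that passed the filter Igkc fell, Ighm did not pass the test, and Jchain passed the filter only through its control values, and Cd79a and Mzb1 were each listed at 0 in some libraries. Neutrophil markers summed to 4.97 to 20.1 TPM in controls and 35.6 to 109.7 TPM in SAP. S100a8 and S100a9 made up most of that sum in each library. The neutrophil markers below the filter reached at most 1.65 TPM. Monocyte markers summed to 41.4 to 61.4 TPM in controls and 58.2 to 92.1 TPM in SAP. Of 10 neutrophil markers 3 passed the filter, and S100a8 and S100a9 rose; Retnlg passed it only through its SAP values. Of 6 monocyte markers 3 passed it, of which Plac8 rose and Lyz2 fell, and Itgam passed it only through its SAP values. Of 6 Kupffer cell markers Clec4f, Timd4 and Vsig4 fell, 2 did not pass and Marco was higher (4.50). Marco had 0.43 to 1.52 TPM in controls and 34.1 to 76.6 TPM in SAP, and it passed the filter only with its SAP values. Lyve1 (1.25) and Pecam1 rose among 5 sinusoidal endothelium markers, and Des, Col1a1 and Dcn rose and Reln fell (-1.22) among 5 stellate cell markers. Krt19, the 1 cholangiocyte marker of 4 that was tested, did not pass. Of 5 hepatocyte markers 3 were lower (Alb, Ttr and Cps1), 1, Apoa1, was higher, and Hnf4a did not pass. The 5 hepatocyte markers summed to 81652 ± 4379 TPM in controls and 41815 ± 5371 TPM in SAP (SD, n = 6 each). Some markers of each of these types except acinar cells and cholangiocytes thus differed between the groups, and their part in the result was not tested.

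Read assignment limits some members. In GENCODE M21 on GRCm38, 23 of the 48 genes overlap another annotated gene, and 8 of them (Spcs1, Spcs2, Spcs3, Rpn2, Ost4, Alg1, Alg3 and Alg9) overlap a protein-coding gene on the opposite strand. Dpm1, Sec11a and Srprb overlap a protein-coding model on their own strand. Whether counting used the strand is not stated, so values of the 8 are uncertain to that extent. For Dpm1, Sec11a and Srprb the strand cannot separate the genes. How shared reads were assigned is not stated, so values of these members are uncertain too.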

How the data were processed

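Liver RNA-seq of 6 control and 6 SAP samples was deposited by the authors as 1 table of TPM values, 55487 rows by 12 libraries. TPM is a reading of the values, since neither labels nor header state a unit: the columns sum to 993412 to 995793. TPM keeps no depth, so depth is unknown. The only tool in the submitters' processing notes is edgeR, without role or version. Aligner, build, annotation and strand handling: not given in the sources used here. All 12 columns were used and 0 left out.

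Log2(TPM + 1) was fitted with limma-trend (limma 3.58.1, R 4.3.3) for the 11344 genes that reached 1 TPM in 6 or more libraries, with group as the only term, two-sided, Benjamini-Hochberg at 0.05. Log2 differences are SAP minus control and understate changes of low genes. Among rows sharing a symbol, the one with the highest median kept it; no member shared one. Pair ratios used exact permutation tests. The pipeline was tested on simulated data. Members, stages and lists were chosen with earlier results of these data known. Named genes per stage were the 3 smallest and the largest adjusted p; all other members are also given. From each neighbouring list the 3 smallest were named, and other names there were chosen after their values were seen. Alternatives were other scalings (quantile, TMM-like, total outside the acute-phase list), filters, a pseudocount of 0.1, limma settings, the Xist split and leaving out libraries. Figures used matplotlib 3.10.9.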

Additional observations from a re-analysis of the deposited data

Results flagged for a closer look

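Among the 96 sets of 6 libraries (48 genes in 2 groups), 3 had a library far from the others, with a gap to the nearest, relative to the whole range, above Dixon's 95% critical value; chance alone gives about 1 in 20. Sec63 was at 97.1 TPM in SAP 13, with the next SAP library at 87.3 TPM. Spcs2 was at 158 TPM in control 5, with the next control at 130.9 TPM. Dpm2 was at 32.6 TPM in control 7, with the next control at 28.6 TPM.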

How the results depend on the processing

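Over the 24 alternatives, 32 of the 48 members were higher and past the threshold in every fit, and 0 were lower and past it in any. The count of higher members ranged from 35 to 38 when 1 library was left out, with 0 lower, the members' median from 0.71 to 0.77, and all tested genes from 1894 to 2390 higher and from 2497 to 3042 lower. Stage medians then ranged from 0.39 to 0.53 for the particle, 0.78 to 0.84 for the translocon, 0.78 to 0.88 for signal peptidase, 0.79 to 0.90 for glycan transfer, 0.11 to 0.16 for assembly and 0.46 to 0.54 for trimming. With the total set outside the acute-phase list, 6210 genes were higher and 1267 lower, and the medians were 1.12 for all members and 0.85, 1.20, 1.22, 1.24, 0.50 and 0.88 for the stages in that order; Alg5 (0.36), Alg14 (0.31) and Dpm1 (0.33) changed sign. Each library's values are raised there by the share removed, which is larger in SAP. With quantile normalization the medians were 0.93 for all members and 1.08, 1.12, 1.10, 0.21 and 0.73 from the translocon on, and Dpm1 was 0.21; the cause was not tested. Within the high Xist libraries, with fewer samples, 1801 genes were lower, and the ratios of Sec11a to Sec11c (-0.46), Ganab to Prkcsh (-0.54) and Sec62 to Sec63 (-0.46) kept their direction (adjusted p = 0.0794 each, where 5 against 2 libraries allow no unadjusted p below 0.0476, so the threshold was hardly within reach), and Stt3a to Stt3b was 0.04. The Srpr to Srprb ratio passed with a pseudocount of 0.1 (-0.33) and ranged from -0.36 to -0.20 with 1 library left out; the other ratios ranged from -0.69 to -0.63 (Ganab to Prkcsh), -0.37 to -0.28 (Sec11a to Sec11c), -0.49 to -0.42 (Sec62 to Sec63) and -0.29 to -0.14 (Stt3a to Stt3b). Taking the row with the highest mean for shared symbols changed no member. No paired analysis was possible because the groups share no replicate numbers. Depth is unknown, so counting error could not be set apart.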
